A study of Mus musculus with 4 samples.

Results

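Ryk and 5 other WNT co-receptor genes, Ror1, Ror2, Ptk7, Lrp5 and Lrp6, were read in newborn mouse lung. They were taken by symbol from the 48709 genes of the deposited table, and all 6 passed the filter on low values (a mean of at least 10 normalized counts over the 4 libraries) that left 18436 genes. The libraries came from the left lung lobe of untreated C57BL/6 mice at postnatal day 1. There were 2 mice of genotype RykSL/SL, written as homozygous for the SL allele of Ryk, and 2 wild-type mice. No source used here tells how the SL allele alters Ryk RNA or protein, and a total per gene does not separate alleles. The comparison asks how these receptor genes differ between mutant and wild-type lungs.

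WNT proteins are secreted, lipid-modified ligands that bind Frizzled receptors together with a co-receptor. LRP5 and LRP6, large members of the LDL receptor family, lead to stabilised beta-catenin when a WNT bridges them to a Frizzled. RYK, ROR1, ROR2 and PTK7 resemble receptor tyrosine kinases and are mostly tied to signalling without beta-catenin, such as planar cell polarity and directed cell movement. In the developing lung WNT signals pass between mesenchyme and epithelium and shape branching and the airway wall.

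The libraries summed to 19516482 and 19987634 normalized counts in RykSL/SL lungs 1 and 2, against 18743098 and 18658239 in wild-type lungs 1 and 2. RykSL/SL lung 1 stood apart in sex-linked genes, with 24836 normalized counts of Xist, the RNA of the inactive X chromosome, against 9 in RykSL/SL lung 2 and a wild-type pair of 7 and 23. The Y-linked genes Ddx3y and Kdm5d had 56 and 17 in RykSL/SL lung 1, against 3769 and 977 in RykSL/SL lung 2. In wild-type lungs Ddx3y had 2328 and 2197, and Kdm5d 829 and 858. By these genes RykSL/SL lung 1 came from a female and the other lungs from males. The SD over genes of the log2 difference between lungs was 0.60 for the RykSL/SL lungs and 0.314 for the wild-type lungs. Epithelial, mesenchymal and endothelial lung markers were measured in all libraries. Of the 14 epithelial markers none passed the genotype test, and they summed to 322348 and 265985 normalized counts in RykSL/SL lungs, against 383835 and 361171 in wild-type lungs. Of 15 mesenchymal markers 1 was higher and 1 lower, with sums of 57582 and 52996 in RykSL/SL and 73188 and 70576 in wild type. None of 10 endothelial markers passed, with sums of 37828 and 23193 in RykSL/SL and 30891 and 34039 in wild type. None of the markers on these lists was at 0 in every library.

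Of the 6 co-receptor genes, none passed the genotype test (limma on log2(value + 1), Benjamini-Hochberg adjusted p under 0.05), where 2.39% of all genes tested did, 1.47% higher and 0.917% lower in RykSL/SL. Lrp5 was the member with the largest positive log2 fold change and lay higher in both RykSL/SL lungs, and Ror1 and Ror2 lay lower in both. Ryk and Lrp6 had fold changes near 0, and Ptk7 was the member whose RykSL/SL lungs differed most. Both RykSL/SL lungs lay beyond both wild-type lungs in 3 of the 6 genes, against 52.6% of all genes tested. At an unadjusted p under 0.05 there was 1 member, Lrp5, against a background of 20.1%, and which member this was depended on the processing. The median log2 fold change of the 6 was -0.11, beside -0.016 over all genes tested. A p that misses the threshold with 2 lungs per genotype does not show equal levels, so each 95% interval is given with its value.

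**Figure D1:**
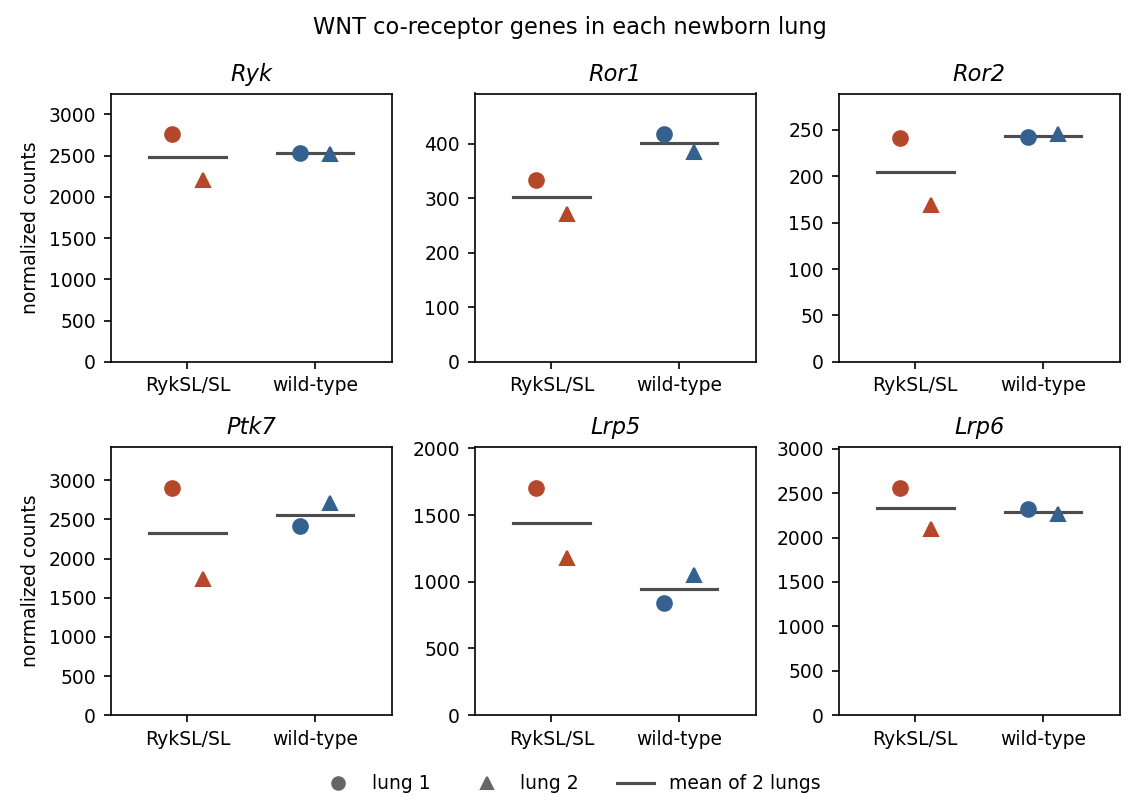
Normalized counts (y axis, from 0) of the 6 co-receptor genes in each lung, with RykSL/SL lungs in red and wild-type lungs in blue; circles are lung 1, triangles lung 2 and lines the mean of 2 lungs. In every panel RykSL/SL lung 2 lies below RykSL/SL lung 1, and Lrp5 is the gene in which both RykSL/SL lungs, at 1705 and 1177, lie above both wild-type lungs.

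Ryk (ENSMUSG00000032547, GRCm38 chromosome 9, positions 102834917 to 102908305, plus strand) encodes a receptor that binds WNT through an extracellular WIF domain and has a kinase-like domain thought to lack activity. It had 2757 and 2203 normalized counts in RykSL/SL lungs, against 2528 and 2525 in wild-type lungs. The wild-type values lay between the RykSL/SL values, so the groups overlapped. The means were 2480 ± 392 in RykSL/SL and 2526.5 ± 2.12 in wild type (SD, n = 2 each). The log2 fold change, -0.036 (standard error 0.16, adjusted p = 0.926 in limma), had a 95% interval from -0.43 to 0.35, which covers ratios of RykSL/SL to wild type from 0.744 to 1.28. Ryk was thus measured in all 4 lungs, and its total count does not serve as a check of the genotype labels. None of the 50-base stretches of Ryk transcripts occurred in transcripts of another gene, and no exon of another gene overlapped its exons.

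Per kilobase of exon (the merged exons of each gene in GENCODE M21), Ryk stood highest of the 6 genes, at 547 ± 86.4 normalized counts per kb in RykSL/SL and 557 ± 0.468 in wild type (SD, n = 2 each). Averaged over the 4 lungs, 88.6% of genes tested stood below it. Ptk7 came next at 431 ± 153 normalized counts per kb in RykSL/SL and 475 ± 38.7 in wild type. Lrp6 followed at 170 ± 24.0 in RykSL/SL and 168 ± 3.26 in wild type, and Lrp5 at 148 ± 38.3 in RykSL/SL and 97.1 ± 14.7 in wild type. Ror1 stood at 52.4 ± 7.61 in RykSL/SL and 69.5 ± 4.05 in wild type. Ror2 was lowest, at 56.8 and 39.8 in RykSL/SL lungs and 57.0 and 57.8 in wild-type lungs. On this scale Ryk exceeded Ror2 11.3-fold in RykSL/SL lungs and 9.71-fold in wild-type lungs. The order was the same in both genotypes. In the wild-type lungs no neighbours in it overlapped, whereas in the RykSL/SL lungs Ryk overlapped Ptk7, Lrp6 overlapped Lrp5 and Ror1 overlapped Ror2.

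**Figure D2:**
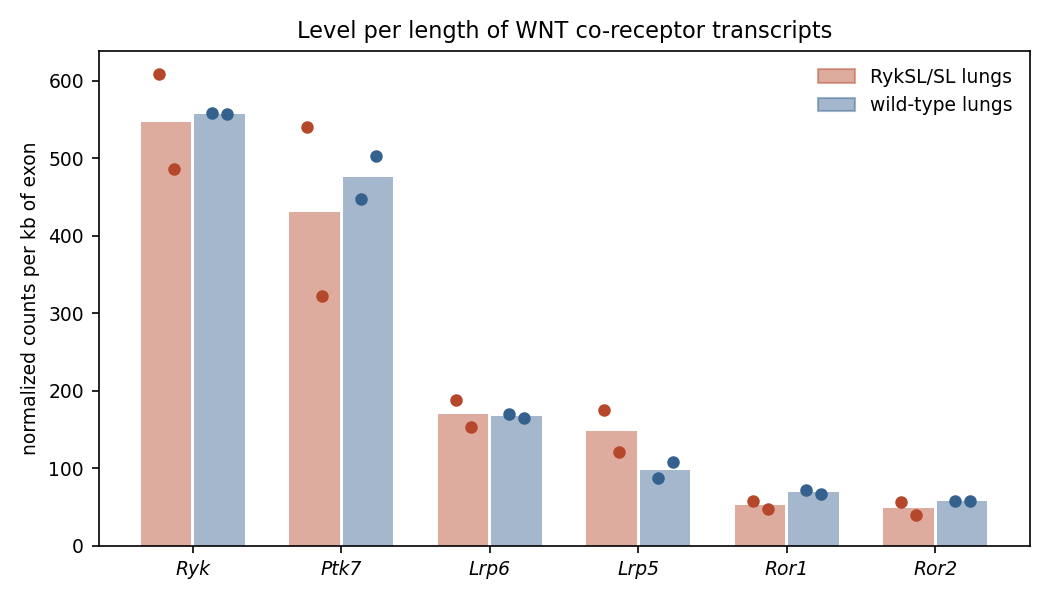
Normalized counts per kb of merged exon (y axis, from 0) for the 6 genes in the order of their wild-type means; bars are means of 2 lungs, dots single lungs, RykSL/SL in red left of wild type in blue. Ryk and Ptk7 form the upper part of the range, and Ror1 and Ror2 the lower, at 69.5 normalized counts per kb or less on average.

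The promoter windows of the genes with the highest and lowest level per length, Ryk and Ror2, are shown because the members differ most in that level. Each runs from 250 bases before to 50 after the gene start (RefSeq, GRCm38.p6, 5′ to 3′ on the gene's strand), and capitals mark the GC box GGGCGG or its reverse complement CCGCCC. Of the 6 genes, 4 had such a window. The Ryk window is chr9:102834670-102834969 on the plus strand and the Ror2 window chr13:53286075-53286374 on the minus strand.
Ryk: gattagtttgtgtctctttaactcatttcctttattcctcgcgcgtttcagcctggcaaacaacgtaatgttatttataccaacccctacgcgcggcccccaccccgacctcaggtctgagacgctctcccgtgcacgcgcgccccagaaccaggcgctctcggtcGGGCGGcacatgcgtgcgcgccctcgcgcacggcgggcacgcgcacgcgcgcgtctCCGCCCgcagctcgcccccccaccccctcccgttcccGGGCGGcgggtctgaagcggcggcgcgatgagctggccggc
Ror2: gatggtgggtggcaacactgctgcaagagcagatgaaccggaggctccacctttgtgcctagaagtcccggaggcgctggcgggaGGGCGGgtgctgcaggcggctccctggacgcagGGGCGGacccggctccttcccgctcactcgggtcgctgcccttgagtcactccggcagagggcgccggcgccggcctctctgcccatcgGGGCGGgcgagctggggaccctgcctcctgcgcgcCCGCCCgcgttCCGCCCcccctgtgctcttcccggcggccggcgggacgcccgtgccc
The GC box letters occurred 3 times in the Ryk window and 5 times in that of Ror2, on either strand, and at least once in 35.7% of 32851 promoter windows. The Ryk window held 42 CpG dinucleotides and the Ror2 window 32, where the median window held 7, and Ror1 and Ptk7 had 10 and 22. The letters CTTTGAT, a form of the site bound by TCF and LEF factors, were in none of the 4 windows on either strand and in 3.73% of all windows. Both windows shown were thus rich in CpG against the other windows.

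Ror1 (ENSMUSG00000035305, chromosome 4, positions 100095791 to 100444765) and Ror2 (ENSMUSG00000021464, chromosome 13, positions 53109312 to 53286124) encode paralogous receptors with a Frizzled-like cysteine-rich domain, and ROR2 is a receptor for WNT5A. Ror1 had 333 and 271 normalized counts in RykSL/SL lungs, against 417 and 384 in wild-type lungs. Both RykSL/SL lungs lay below both wild-type lungs, as they did for 26.9% of genes tested. The log2 fold change of Ror1 was -0.41 (standard error 0.175, 95% interval -0.84 to 0.02, adjusted p = 0.261).

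Ror2 had 241 and 169 normalized counts in RykSL/SL lungs, against 242 and 245 in wild-type lungs. RykSL/SL lung 1 lay only just below the wild-type pair, and the difference rested on RykSL/SL lung 2. The log2 fold change of Ror2 was -0.27 (standard error 0.22, 95% interval -0.81 to 0.27, adjusted p = 0.539), and it was -0.015 without RykSL/SL lung 2. The log2 ratio of Ror2 to Ror1 within a lung was -0.46 and -0.68 in RykSL/SL lungs and -0.78 and -0.65 in wild-type lungs. The groups overlapped, and the difference of 0.14 gave p = 0.667 in a two-sided exact permutation test, in which 4 lungs cannot go below 0.333.

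Ptk7 (ENSMUSG00000023972, chromosome 17, positions 46564451 to 46629504) encodes a receptor with immunoglobulin-like domains and a kinase-like domain that is needed for planar cell polarity in mice. It had 2905 and 1737 normalized counts in RykSL/SL lungs, against 2411 and 2706 in wild-type lungs. The RykSL/SL lungs lay on either side of the wild-type pair. The log2 fold change of Ptk7 was -0.19 (standard error 0.254, 95% interval -0.80 to 0.43, adjusted p = 0.727). Without RykSL/SL lung 1 it was -0.56 (adjusted p = 0.0635), and without RykSL/SL lung 2 it was 0.19, so the direction for Ptk7 turned on which mutant lung was read.

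Lrp5 (ENSMUSG00000024913, chromosome 19, positions 3584828 to 3686564) and Lrp6 (ENSMUSG00000030201, chromosome 6, positions 134446476 to 134566965) encode the paralogous co-receptors of beta-catenin signalling, whose phosphorylated tails bind axin. Lrp5 had 1705 and 1177 normalized counts in RykSL/SL lungs, against 844 and 1047 in wild-type lungs. Both RykSL/SL lungs lay above both wild-type lungs, as they did for 25.7% of genes tested, but the gap of 528 between the RykSL/SL lungs was larger than the mean difference of 495.5 between genotypes. The log2 fold change of Lrp5 was 0.59 (standard error 0.22, 95% interval 0.05 to 1.13, unadjusted p = 0.0357, adjusted p = 0.218). Without RykSL/SL lung 1, the lung with high Xist, it was 0.32, and without RykSL/SL lung 2 it was 0.86. Neither passed, with adjusted p of 0.258 and 0.126.

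Lrp6 had 2561 and 2097 normalized counts in RykSL/SL lungs, against 2323 and 2260 in wild-type lungs, which lay between them. The log2 fold change of Lrp6 was 0.016 (standard error 0.154, 95% interval -0.36 to 0.39, adjusted p = 0.967), and its sign turned when each library was rescaled to the same total. The log2 ratio of Lrp6 to Lrp5 within a lung was 0.59 and 0.83 in RykSL/SL lungs, against 1.46 and 1.11 in wild-type lungs. Both RykSL/SL lungs had the lower ratio. The difference was -0.57, and the exact permutation test gave p = 0.333, the smallest that 4 lungs allow, so this shift in the balance of the paralogues could not pass a threshold of 0.05 in this design. Of the 50-base stretches of Lrp5 and Lrp6 transcripts, 0.14% and 0.76% occurred in transcripts of other genes.

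The length of a gene's exons moved with the genotype difference. Over protein-coding genes tested, the median log2 fold change was -0.15 for genes with under 2 kb of merged exon, 0.07 for those of 6 to 10 kb, the class of Lrp5 at 9.74 kb, and 0.15 for those over 10 kb, the class of Lrp6 at 13.7 kb. It was 0.0025 for 4 to 6 kb, the class of Ryk, Ror1, Ror2 and Ptk7. The part of length in the values of Lrp5 and Lrp6 was not tested.

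**Figure D3:**
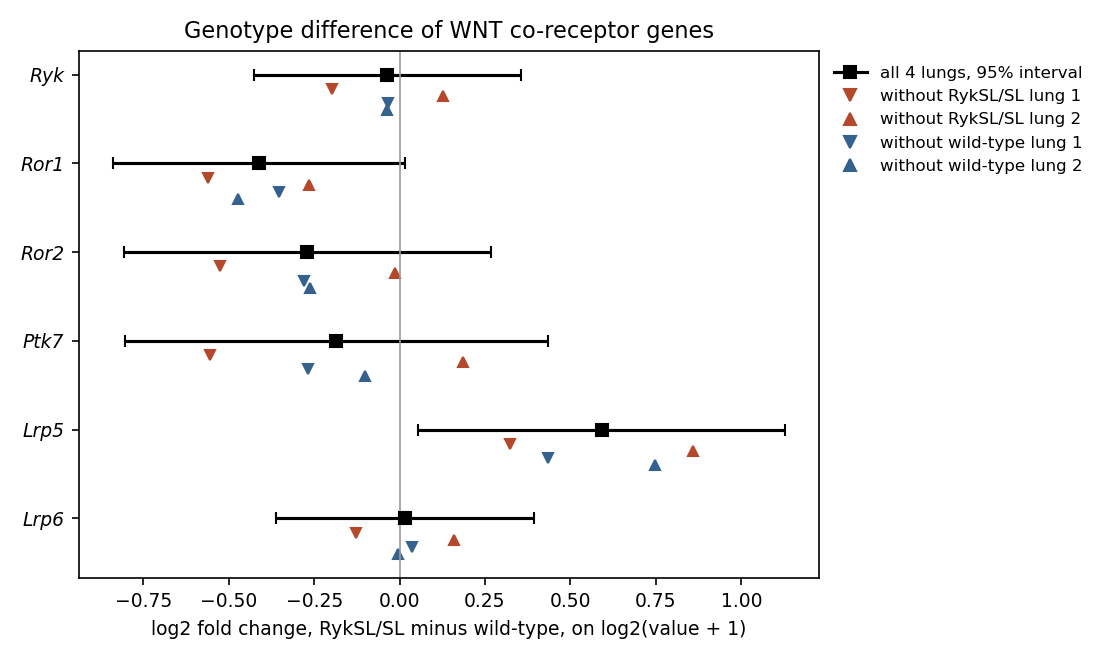
Log2 fold change of each co-receptor gene, RykSL/SL minus wild type (x axis), as black squares with 95% intervals from limma over 4 lungs and, under each, triangles for the value with 1 lung left out. The interval of Lrp5, from 0.05 to 1.13, is the 1 interval that lies to the right of 0 before adjustment over all genes, and Ptk7, Ryk and Lrp6 have triangles on both sides of 0.

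All 6 co-receptor genes were lower in RykSL/SL lung 2 than in RykSL/SL lung 1. Over all genes tested, 50.8% were lower in that lung, with a median difference of -0.015. The co-receptor values were lower by 40.2% for Ptk7, 31.0% for Lrp5, 29.9% for Ror2, 20.1% for Ryk, 18.6% for Ror1 and 18.1% for Lrp6. On the log2 scale the difference was -0.74 for Ptk7, a value as low as or lower than which 7.49% of genes tested had, and -0.29 for Lrp6, where that share was 27.8%. In the wild-type lungs the log2 differences of the 6 genes between lungs ran from -0.12 for Ror1 to 0.31 for Lrp5, with both signs. All 6 genes varied more between the RykSL/SL lungs than between the wild-type lungs, as did 74.4% of all genes tested. The median difference from the wild-type mean over the 6 genes was 0.14 in RykSL/SL lung 1 and -0.36 in RykSL/SL lung 2. By their sex-linked genes the RykSL/SL lungs also differed in sex, and the part of sex in these differences was not tested.

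The medians of the mesenchymal, endothelial and epithelial markers were lower in RykSL/SL lung 2 than in RykSL/SL lung 1. The median difference from the wild-type mean was -0.07 in RykSL/SL lung 1 and -0.53 in RykSL/SL lung 2 over the mesenchymal markers. Over the endothelial markers it was -0.13 and -0.42, and over the epithelial markers 0.0016 and -0.25. Over erythroid markers it was -0.39 and -0.63. Not every list was lower in RykSL/SL lung 2: immune markers stood at -0.75 and -0.64, and cardiac muscle markers at -1.24 and -1.10. In bulk lung, fewer cells of a type and less RNA per cell cannot be told apart, and the part of tissue makeup in the co-receptor values was not tested.

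**Figure D4:**
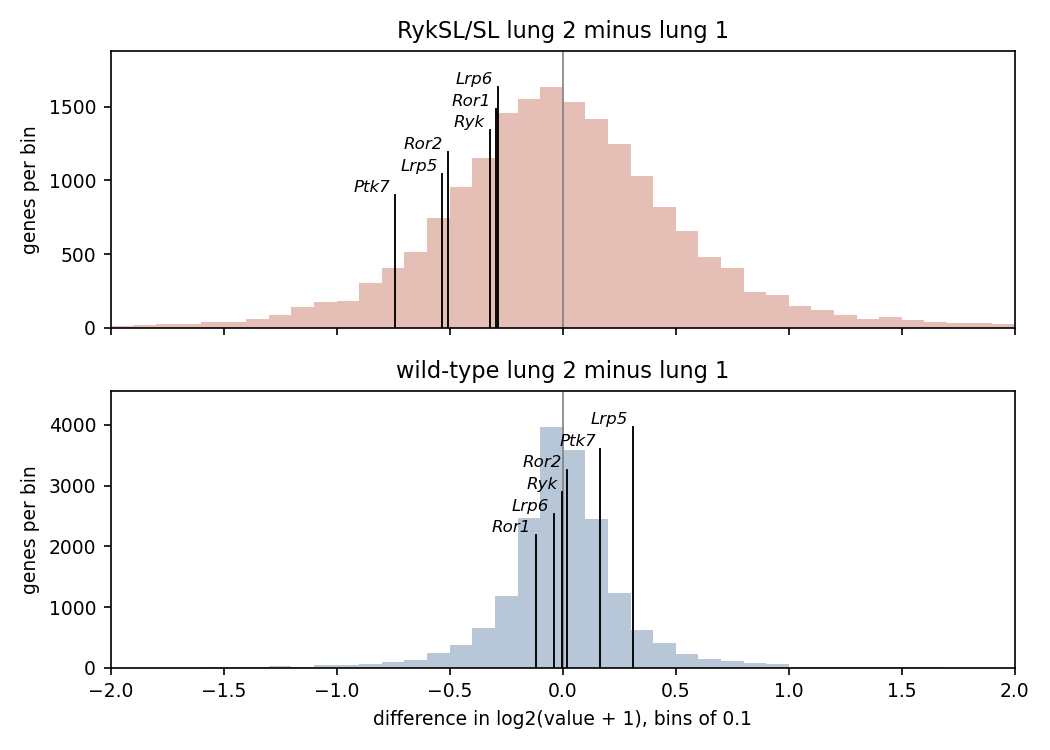
Histograms of the difference in log2(value + 1) between lung 2 and lung 1 of each genotype over 18436 genes (x axis, bins of 0.1; y axis, genes per bin; differences beyond 2 in size are not drawn), RykSL/SL above and wild type below, with vertical lines for the co-receptor genes. All 6 lines lie left of 0 between the RykSL/SL lungs, from -0.74 to -0.29, and on both sides of 0 between the wild-type lungs.

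The genes on which these receptors depend were read beside them. Of 11 measured WNT ligand genes 2 were lower and none higher in RykSL/SL. Wnt5a, the ligand best known for ROR2 and also bound by RYK, had 481 and 399 normalized counts in RykSL/SL lungs, against 1188 and 1116 in wild-type lungs (log2 fold change -1.39, adjusted p = 0.0184). Its change was not tested against that of Ryk, Ror1 or Ror2. Wnt7a also fell (-1.56, adjusted p = 0.0230), and Wnt2 did not pass (-1.91, adjusted p = 0.0551). None of 9 measured Frizzled genes passed, with a median of -0.55 and values from -1.0 to 0.52, so both directions occurred. Their median difference from the wild-type mean was 0.15 in RykSL/SL lung 1 and -0.71 in RykSL/SL lung 2. Fzd1 (-0.75), Fzd2 (-0.99) and Fzd7 (-1.0) had the smallest p, at adjusted values of 0.0595, 0.126 and 0.146.

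Of 13 genes for RYK cleavage and binding, among them the subunits of gamma-secretase, which releases the intracellular part of RYK, none passed, and the median was 0.09. Vangl2 (-0.70, adjusted p = 0.103), a polarity protein that binds RYK, and the gamma-secretase genes Aph1c (0.62, adjusted p = 0.118) and Psen2 (0.37, adjusted p = 0.252) came nearest. Of the 50-base stretches of Aph1c transcripts, 18.4% occurred in other genes, which makes its value uncertain. None of 21 genes of the ROR and PTK7 branch passed, with a median of -0.0047. Rock2, a kinase of cell contraction, stood at 0.65 (adjusted p = 0.0817), and Kif26b, a kinesin degraded upon WNT5A signalling through ROR, at -1.57 (adjusted p = 0.105).

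Of 15 measured regulators of LRP5 and LRP6 at the cell surface, 1 was lower and the median was -0.38. Their median difference from the wild-type mean was -0.02 in RykSL/SL lung 1 and -0.74 in RykSL/SL lung 2. Rspo2, a secreted protein that helps keep WNT receptors at the surface, had 31 and 11 normalized counts in RykSL/SL lungs, against 135 and 138 in wild-type lungs (-2.81, adjusted p = 0.0452). Lrp4 (0.76, adjusted p = 0.0895) and Lgr6 (-0.99, adjusted p = 0.0903) did not pass. None of 17 genes for intracellular partners of LRP5 and LRP6 passed, with a median of 0.15, and the smallest p belonged to Csnk1e (0.42), Amer1 (0.41) and Dvl3 (0.38), with adjusted values of 0.169, 0.258 and 0.280. Of 12 beta-catenin feedback genes 1 was lower, Wif1 (-1.88, adjusted p = 0.0417), a secreted WNT inhibitor, and the median was -0.27. Over these feedback genes the median difference from the wild-type mean was -0.05 in RykSL/SL lung 1 and -0.47 in RykSL/SL lung 2. Notum (-1.52, adjusted p = 0.0553; 29.5% of its 50-base stretches are shared), Sp5 (-1.77, adjusted p = 0.0981) and Axin2 (0.15, adjusted p = 0.693) did not pass. Wnt5a, Wnt7a, Rspo2 and Wif1 passed with all 4 lungs, and these calls were not kept in each fit with a lung left out. Such a fit holds 1 lung of a genotype, so it was read for effect size. In those fits the log2 fold changes ran from -1.53 to -1.26 for Wnt5a and from -1.68 to -1.43 for Wnt7a. They ran from -3.52 to -2.10 for Rspo2 and from -2.27 to -1.49 for Wif1.

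**Figure D5:**
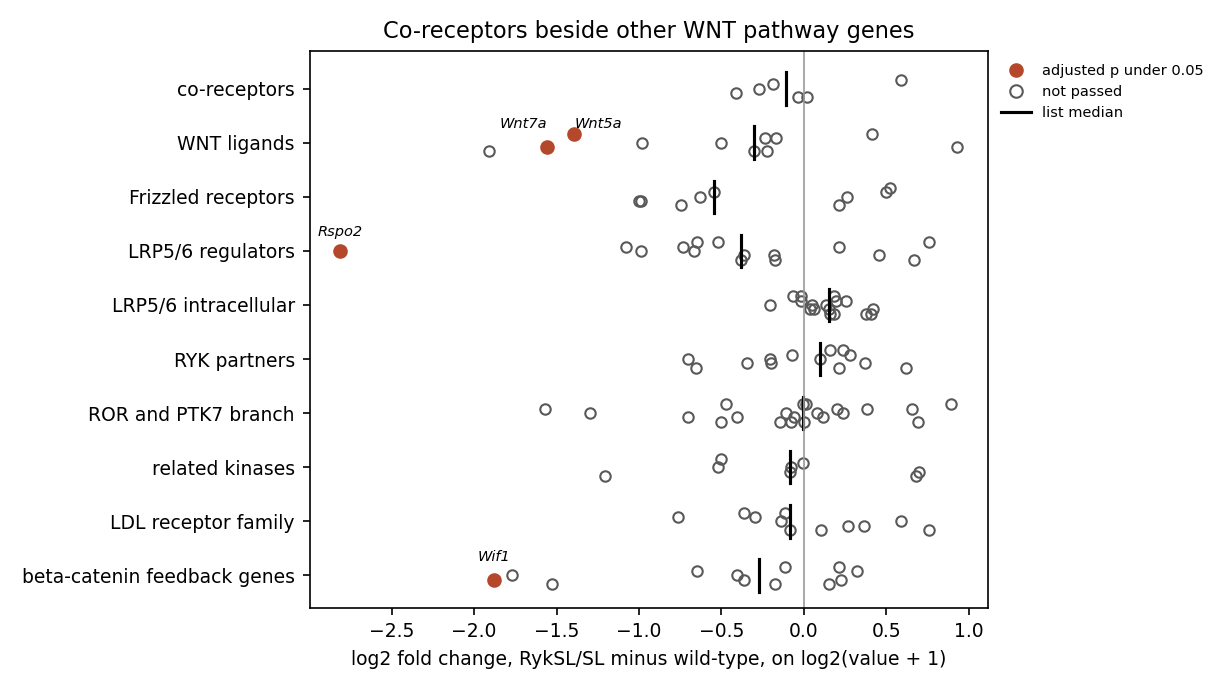
Log2 fold change, RykSL/SL minus wild type (x axis), of the 6 co-receptor genes and of the measured genes of 9 WNT and receptor lists (rows); filled circles passed the test, open circles did not, and vertical bars are medians. The co-receptors spread from -0.41 to 0.59 around a median of -0.11, and Wnt5a, Wnt7a, Rspo2 and Wif1 are the genes that passed.

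The genes whose profile over the 4 lungs came nearest to each member were found by the distance between log2 values centred on each gene's own mean, among 11224 protein-coding genes with a mean of at least 100. For Ryk they were Chmp4b (distance 0.011) and Sertad2 (0.0176), and 262 genes lay within 0.1. For Ror1 they were Fpgs and Cops6, for Ror2 Snx17 and Endod1, for Ptk7 Zfp553 and Kifc3, and for Lrp6 Kif16b and Vps4b, at distances up to 0.0312. Of the 50-base stretches of Kifc3 transcripts, 20.7% are shared. Lrp5 had fewer near genes, with 4 within 0.1, of which Aox3 (0.0257) and Hipk2 (0.0722) were nearest. The distance is not scaled by how far a gene varies between lungs, so genes that vary more tend to have fewer near genes. With 4 lungs, likeness of this kind is a description of these libraries.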

How the data were processed

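Poly(A) RNA from 3 µg of total RNA per lung was made into libraries with a stranded kit (TruSeq Stranded mRNA), per the labels' protocols. The tools named in the submitters' processing notes are FastQC, STAR 2.4.0a, featureCounts 1.5.1 of Subread and DESeq2 1.14.1, with builds mm10 and GRCm38. The authors deposited normalized counts, held here as a score: whole numbers scaled per library and rounded, with the method of scaling not given in the sources used here. In RykSL/SL lung 2 no gene has a value of 3, 10 or 17, as scaled and rounded counts would give. No count model was run, and the depth before scaling is unknown.

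Genes with a mean of at least 10 were tested with limma 3.58.1 (R 4.3.3), on log2(value + 1) with empirical Bayes variances that follow the mean, two-sided, with Benjamini-Hochberg adjustment over 18436 genes and a threshold of 0.05. Fold changes on this scale understate changes of low genes. The fit was tested on simulated data with the same spread in both genotypes. That test does not cover the wider spread between the RykSL/SL lungs. Standard errors and 95% intervals are the moderated ones. Groups and replicate numbers come from the sample titles, and the extraction protocol counts mice, so each library is a separate mouse. Of the deposited identifiers, 48349 of 48709 were found in GENCODE M21, and coordinates are those of the deposited table. Python 3.11.15, pandas 2.3.3, numpy 2.4.6 and matplotlib 3.10.9 did the rest.

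The members and lists were chosen with earlier results of these data known. Named are the 6 members, the 3 genes with the smallest p in each pathway list and any that passed, Wnt5a, Axin2, and the 2 nearest profiles of each member; an item that this rule selects is not reported here. Alternatives were the pseudocount, the filter, the scaling, the variance model, leaving out each lung and a replicate block.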

Additional observations from a re-analysis of the deposited data

How the results depend on the processing

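None of the 6 co-receptor genes passed under any of 13 alternatives. Across them the log2 fold change of Lrp5 stayed positive (0.32 to 0.86) and those of Ror1 (-0.56 to -0.26) and Ror2 (-0.52 to -0.015) negative. In these genes both RykSL/SL lungs lay beyond both wild-type lungs, so leaving out 1 lung could not turn the sign. The filter, the variance model and the block cannot change a fold change, so the kept signs are no separate support. Lrp6 turned to -0.062 with libraries rescaled to one total and to -0.11 after quantile normalization. Leaving out each lung in turn gave -0.20 to 0.13 for Ryk, -0.56 to 0.19 for Ptk7 and -0.13 to 0.16 for Lrp6. It gave -0.75 to -0.40 for the log2 ratio of Lrp6 to Lrp5 and 0.036 to 0.25 for that of Ror2 to Ror1. A genotype left with 1 lung is assumed to vary like the other.

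The background of called genes, 440, was 72 without the trend and 0 in limma with no filter (31939 genes above 0 in any library; 4876 at an unadjusted p under 0.05). It was 0 to 2385 with a lung left out: 2385 without RykSL/SL lung 1, and 0 without RykSL/SL lung 2, wild-type lung 1 or wild-type lung 2, where 5249, 917 and 1133 genes had an unadjusted p under 0.05. Wnt5a, Wnt7a and Wif1 passed in 8 of 13 alternatives and Rspo2 in 7, all with the same sign; without the trend their adjusted p were 0.0628, 0.0537, 0.0854 and 0.0965 in the order named, with Rspo2 last, and after quantile normalization that of Rspo2 was 0.0570. The causes were not tested. With the replicate number as a block in limma the background was 766, and no co-receptor gene passed (Lrp5 0.59, adjusted p = 0.218). The fold changes cannot differ there, because each replicate number holds 1 lung of each genotype. Same-numbered lungs did not deviate together (r = -0.058 across genes, which are not independent replicates). The sample titles give them a shared number, and whether they shared a batch was not tested. The lowest member value, 169 normalized counts, is well above the filter, and 2 lungs per genotype limit the precision.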

Other observations

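Other relatives of the co-receptors were read in the same fit. Of 11 measured members of the LDL receptor family outside Lrp5 and Lrp6, none passed, and the median log2 fold change was -0.09. Lrp1, a large endocytic receptor, had 4448 and 5355 normalized counts in RykSL/SL lungs, against 3095 and 3406 in wild-type lungs (0.59, adjusted p = 0.131). Lrp2, the epithelial endocytic receptor megalin, had 195 and 218 in RykSL/SL lungs, against 418 and 293 in wild-type lungs (-0.76, adjusted p = 0.145). Of 8 measured receptor tyrosine kinases that are pseudokinases or relatives of ROR, none passed, with a median of -0.08. Erbb3, a neuregulin receptor with a weak kinase domain, had 3431 and 2315 in RykSL/SL lungs, against 1677 and 1848 in wild-type lungs (0.68, adjusted p = 0.165). The collagen receptor gene Ddr2 did not pass (-0.50, adjusted p = 0.187).

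Markers of cardiac muscle, immune cells, erythroid cells, thymus, skeletal muscle and neural tissue were also read. Of 7 measured cardiac muscle markers 2 were lower in RykSL/SL, with sums over the list of 3562 and 3542 normalized counts in RykSL/SL lungs, against 7038 and 6970 in wild-type lungs. Of 9 measured immune markers 1 was lower, with sums of 22672 and 25580 in RykSL/SL and 40430 and 30918 in wild type. None of 4 erythroid markers passed, with sums of 3925 and 2885 in RykSL/SL and 3624 and 4464 in wild type. Thymus, skeletal muscle and neural markers summed to at most 185 normalized counts in RykSL/SL lungs and at most 259 in wild-type lungs. Only 1 thymus, 3 skeletal muscle and 1 neural marker reached the filter and were tested, and none of these passed. None of the markers on these lists was at 0 in every library. Their part in the co-receptor values was not tested.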
